A study of Mus musculus with 6 samples.

Results

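The 10 genes described here are the 4 fibroblast growth factor (FGF) receptor genes Fgfr1, Fgfr2, Fgfr3 and Fgfr4, the 4 FGF ligand genes Fgf1, Fgf2, Fgf7 and Fgf10, and the 2 Sprouty genes Spry1 and Spry2. They were taken by symbol from the deposited gene counts, and all 10 of them were found among 54418 gene identifiers. The study examined how epithelial-mesenchymal transition programs and primary cilia act in the mammary gland, with FGFR1 as an inducer of cilia and the transcriptional repressor Glis2 as a regulator that works downstream of cilia. Total RNA was sequenced from sorted mammary epithelial cells of 4 week old C57BL/6 females, of which 3 were wild type (WT, Glis2+/+) and 3 carried a germline knockout of Glis2 (Glis2 KO, Glis2-/-), with 1 library per mouse. The glands were dissociated, stained with antibodies to TER-119, CD31 and CD45 (blood and endothelial cells), CD24 and CD49f, and sorted by flow cytometry. Because the knockout was germline, it was not limited to the epithelium but also carried by stromal and other cells of the gland.

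FGF ligands bind receptor tyrosine kinases together with heparan sulfate, and the receptors signal through the adaptor FRS2 to RAS and MAP kinase and through phospholipase C gamma. In the mammary gland, Fgf10 and Fgf7 are ligands from the stroma that act on the epithelial splice form of Fgfr2, and Fgfr1 and Fgfr2 are known to act in the growth of ducts and the upkeep of basal stem cells. Sprouty proteins are induced by the pathway and restrain it.

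Glis2 itself was still counted in the KO libraries. Its level was 21.7, 23.2 and 19.6 CPM (counts scaled to a common library size by TMM) in the WT libraries 1, 2 and 3 and 10.1, 17.0 and 16.3 CPM in the KO libraries 1, 2 and 3. The genotypes did not overlap in CPM, but edgeR's quasi-likelihood test gave a log2 fold change of -0.57 ± 0.22 (SE) with an adjusted p of 0.906, and per length the libraries did overlap (2.09 to 4.19 TPM, a level per transcript length, in WT and 2.75 to 3.17 TPM in KO). Which part of the gene the knockout allele lacks is not given in the sources used here, so gene-level counts check the labels only in part. Total counts lay between 24996524 and 31393917 per library. A single small RNA gene, Gm23935, held 83.0 to 85.7% of the TPM of each library, so a TPM value here is small even for a gene with many counts. Its share was 85.5, 83.1 and 83.0% in WT and 83.6, 85.7 and 85.6% in KO, in replicate order. TPM of the other genes moves with this share, which limits every comparison of TPM between genotypes below. The basal and luminal epithelial markers were counted in every library, and so were markers of fibroblasts, endothelium, pericytes and immune cells. The 9 immune markers were low, with sums of 16.7 to 31.6 CPM in WT and 33.2 to 66.6 CPM in KO. Ptprc and Cd68 were the most abundant of them per length.

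Across the whole transcriptome, 0 of 21236 genes tested passed both thresholds of edgeR's test, an adjusted p of 0.05 and a log2 fold change of 0.58 in size (0% called, smallest adjusted p 0.392), while 1130 genes had an unadjusted p under 0.05. DESeq2 called 45 genes by the same thresholds, or 0.165% of those it tested. None of the 10 FGF genes was called by either tool. In edgeR 2 of the 10 had an unadjusted p under 0.05, Fgf1 and Spry2, against 5.32% of all genes tested. The estimate was higher in KO for 7 of the 10 genes and lower for 3, with a median log2 fold change of 0.09 beside 0.01 for all genes tested. What follows describes the levels of these genes, their spread between mice and the size of change that the intervals allow. In bulk RNA, fewer cells of a type and less RNA per cell cannot be told apart.

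**Figure D1:**
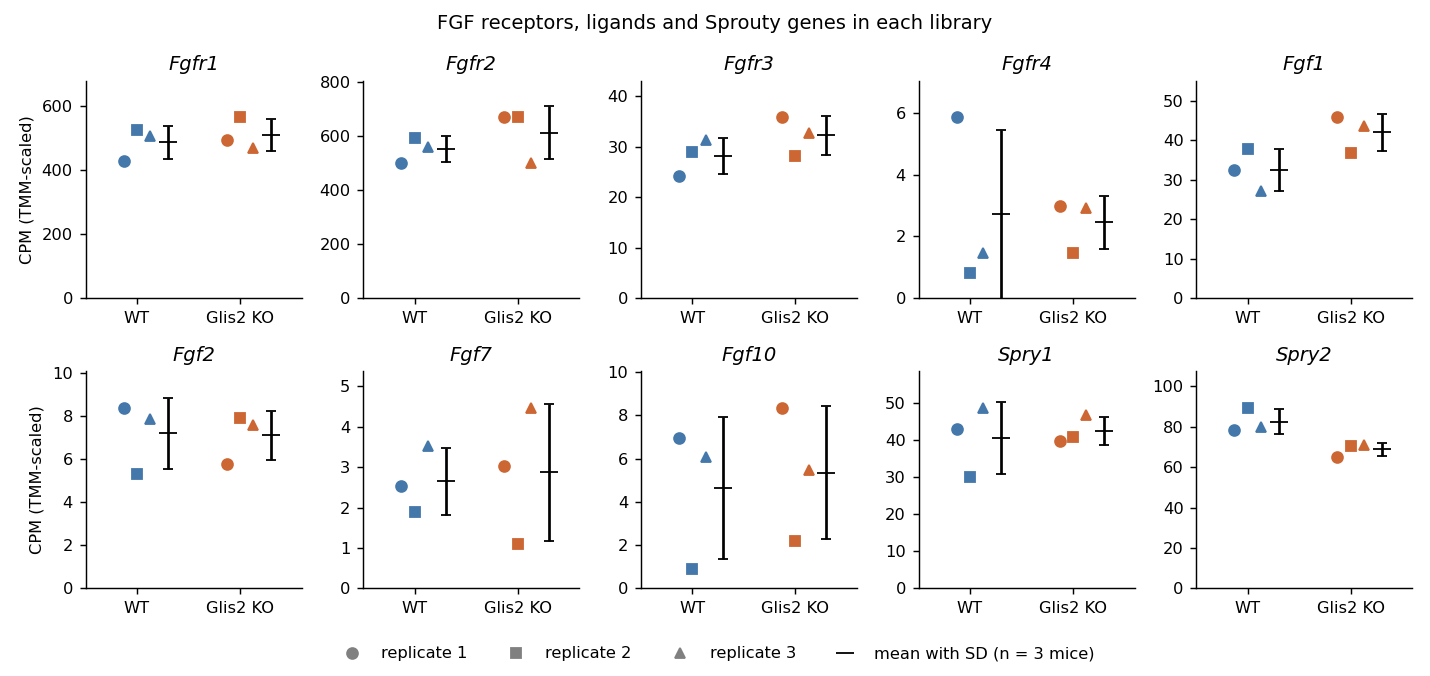
Each panel shows the CPM of 1 gene in the 6 libraries (WT in blue, Glis2 KO in orange, the marker shape giving the replicate number), with the mean and SD of 3 mice beside them on an axis that starts at 0; the lower SD bar of Fgfr4 in WT runs below 0 and is cut there. Only the Spry2 panel shows genotypes that do not overlap, and Fgf10 has its lowest values in replicate 2 of each genotype.

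The stretches of 250 bases before the transcription start of the 2 Sprouty genes are shown because only one of this pair of paralogs, Spry2, separated the genotypes. They are RefSeq sequences of the GRCm38.p6 assembly, the build of the files, read 5′ to 3′ on the strand of the gene. Capitals mark the GC box GGGCGG, on either strand.
Spry1, chr3:37639697-37639946, plus strand: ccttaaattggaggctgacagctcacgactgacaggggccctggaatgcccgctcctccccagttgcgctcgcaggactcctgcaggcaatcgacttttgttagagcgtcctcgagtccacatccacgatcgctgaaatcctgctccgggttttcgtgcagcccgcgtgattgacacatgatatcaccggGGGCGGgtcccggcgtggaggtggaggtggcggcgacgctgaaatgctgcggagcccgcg
Spry2, chr14:105896820-105897069, minus strand: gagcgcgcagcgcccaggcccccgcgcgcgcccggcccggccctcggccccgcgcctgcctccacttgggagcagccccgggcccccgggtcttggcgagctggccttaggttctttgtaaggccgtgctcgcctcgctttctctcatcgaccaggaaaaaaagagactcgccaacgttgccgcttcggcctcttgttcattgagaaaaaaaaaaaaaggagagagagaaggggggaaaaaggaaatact

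Both windows held 62.4% G and C. Spry1 had 1 GC box, 60 to 55 bases before the start, and Spry2 had none in this window. RefSeq windows were present for 8 of the 10 genes (9 windows, more than 1 of them for Fgfr3). GGGCGG was found in those of 5 genes (Fgfr3, Fgfr4, Fgf2, Fgf10 and Spry1). The share over all promoters is per window and not per gene, at 32.7% of 32851 windows of the same length. The E-box CAGGTG of Snail-family factors (17.2% of all windows), the ETS motif CCGGAAG (6.91%), the AP-1 motif TGAGTCA (4.46%) and the GLI motif GACCACCCA (0.225%) were searched on both strands and matched none of the windows of the 8 genes, which says only that these letters are not there.

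Fgfr1 and Fgfr2 were the dominant receptor transcripts in every library. Per length, Fgfr2 lay between 38.6 and 63.5 TPM and Fgfr1 between 37.7 and 61.0 TPM, above 98.9% and 98.8% of protein-coding genes by their mean. Their ranges overlapped almost completely, so their order did not hold beyond the spread of the libraries, although Fgfr2 was the higher one in 5 of 6 libraries. Spry2 came next with a median of 8.18 TPM, and the range of Fgfr1 lay wholly above it. Fgf1, Spry1 and Fgfr3 followed with medians of 4.03, 3.88 and 3.86 TPM and overlapping ranges. Fgf7, Fgf2, Fgf10 and Fgfr4 formed the lowest group, with medians of 0.518, 0.463, 0.323 and 0.169 TPM, and each of these overlapped its neighbour in the order. The gap from Fgfr3 to Fgf7 was 7.46-fold in the medians, and there the ranges did not overlap.

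**Figure D2:**
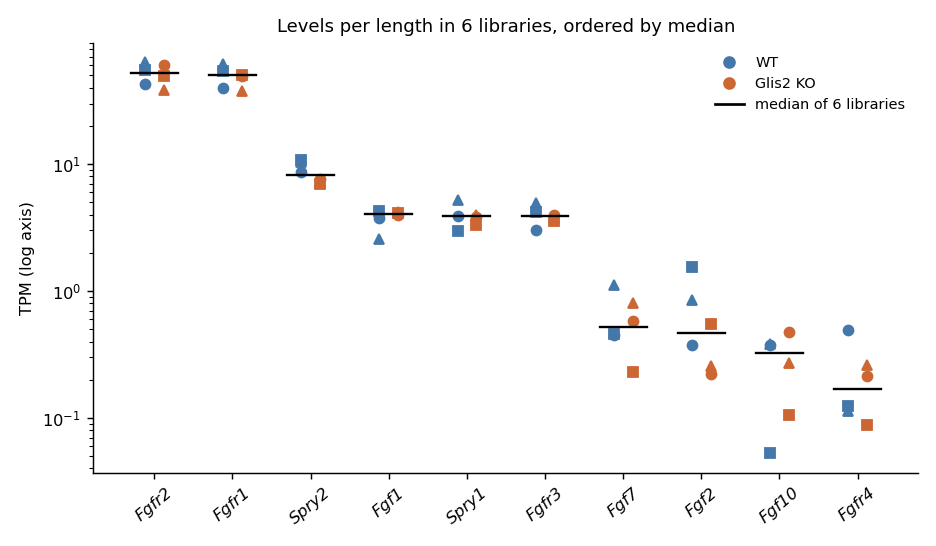
TPM of the 10 genes on a log axis, ordered by the median of the 6 libraries (black line), with WT libraries in blue and Glis2 KO libraries in orange. Fgfr2 and Fgfr1 sit together between 37.7 and 63.5 TPM, 4 genes lie between 2.56 and 10.8 TPM, and Fgf7, Fgf2, Fgf10 and Fgfr4 reach at most 1.54 TPM.

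Fgfr1 (ENSMUSG00000031565, chr8:25513654-25575718, plus strand), the receptor that the study placed upstream of ciliogenesis, had 428, 524 and 506 CPM in WT libraries 1, 2 and 3 and 492, 564 and 467 CPM in KO libraries 1, 2 and 3. The genotypes overlapped, the lowest value and the second highest both being WT. The mean was 486 ± 51.2 CPM in WT and 508 ± 50.4 CPM in KO (SD, n = 3 each). KO over WT gave a log2 fold change of 0.06 ± 0.11 (SE), with a 95% interval from -0.19 to 0.32 and an adjusted p of 0.977 in edgeR. Increases of Fgfr1 above 0.32 and decreases beyond -0.19 on the log2 scale thus lay outside the interval. Its sign was not stable, since it turned to -0.04 without WT replicate 1, to -0.03 without KO replicate 2 and to -0.16 in the log2 TPM values.

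Fgfr2 (ENSMUSG00000030849, chr7:130162451-130266808 in RefSeq, minus strand), the receptor of Fgf7 and Fgf10 in epithelium, had 499, 594 and 560 CPM in the WT libraries and 670, 670 and 499 CPM in the KO libraries. KO replicates 1 and 2 lay above every WT library, but KO replicate 3 was level with the lowest WT library. For Fgfr2 the log2 fold change was 0.15 ± 0.13 (SE, 95% interval -0.15 to 0.46, adjusted p 0.941, edgeR). Leaving out KO replicate 3 moved it to 0.27 with an unadjusted p of 0.0384 and an adjusted p of 0.801. Without WT replicate 1, KO replicate 1 or KO replicate 2 it was 0.07 to 0.08, and in log2 TPM it was -0.12. The counts sum the splice forms of each receptor, so the epithelial and mesenchymal forms of Fgfr1 and Fgfr2 were not distinguished, and 314 exonic bases of Fgfr2 are shared with Ctbp2 on the same strand in the GENCODE annotation.

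The balance between these receptors was close to even in both genotypes. Fgfr1 made up 46.2, 47.6 and 47.1% of the summed receptor TPM in the WT libraries and 43.4, 48.7 and 46.9% in the KO libraries. The means were 47.0% ± 0.725 in WT and 46.3% ± 2.73 in KO (SD, n = 3 each), a difference smaller than either SD, and the KO libraries held both the lowest and the highest share. Fgfr2 took 49.1% ± 0.574 in WT and 49.6% ± 2.89 in KO. The ratio of Fgfr1 to Fgfr2 ran from 0.819 in KO replicate 1 to 1.02 in KO replicate 2.

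Fgfr3 and Fgfr4 contributed little to the receptor pool. Fgfr3 (ENSMUSG00000054252, chr5:33721674-33737068) had 24.2, 29.0 and 31.3 CPM in WT and 35.9, 28.1 and 32.8 CPM in KO, with overlapping genotypes and a log2 fold change of 0.20 ± 0.16 (SE, adjusted p 0.941, edgeR), which was 0.08 without WT replicate 1 and 0.11 without KO replicate 1. It held 3.67% ± 0.159 of receptor TPM in WT and 3.87% ± 0.680 in KO. Fgfr4 (ENSMUSG00000005320, chr13:55152640-55168759) rested on 181, 23 and 38 counts in WT and 75, 44 and 91 counts in KO, or 5.87, 0.805 and 1.46 CPM against 3.00, 1.47 and 2.91 CPM. A single library, WT replicate 1, lay far above the other 2 WT libraries. The log2 fold change of -0.15 ± 0.71 (SE) had an interval from -1.76 to 1.47, and without WT replicate 1 it became 1.10 with an unadjusted p of 0.0961 in edgeR. No statement on the direction of Fgfr4 was possible at this spread.

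Among the ligands, Fgf1 was the most abundant and the only one with an unadjusted p under 0.05. Fgf1 (ENSMUSG00000036585, chr18:38838673-38929472, minus strand), a ligand without a classical secretion signal that can bind every FGF receptor, had 32.5, 37.8 and 27.0 CPM in WT and 45.9, 36.9 and 43.5 CPM in KO. KO replicates 1 and 3 lay above all WT libraries, and KO replicate 2 lay just under WT replicate 2, so the genotypes overlapped. The log2 fold change was 0.38 ± 0.16 (SE, 95% interval 0.01 to 0.74), which is 29.8% higher in KO, with an unadjusted p of 0.0431 and an adjusted p of 0.906 in edgeR. Of all genes tested, 2.99% were higher in KO with such an unadjusted p. The unadjusted p passed 0.05 when WT replicate 1 or 3 or KO replicate 1 or 3 was left out (0.0978 to 0.146), and in log2 TPM the difference was 0.19 with an unadjusted p of 0.339 in limma.

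Fgf2 (ENSMUSG00000037225, chr3:37348346-37410108), the basic FGF, had an estimate near 0 in counts and a larger one per length. In CPM it had 8.39, 5.32 and 7.87 in WT and 5.79, 7.91 and 7.61 in KO, with a log2 fold change of -0.02 ± 0.27 (SE, 95% interval -0.63 to 0.60, adjusted p 0.998, edgeR). In TPM it had 0.373, 1.54 and 0.852 in WT and 0.223, 0.552 and 0.256 in KO. WT replicate 2 was thus the lowest library in CPM and the highest in TPM. With an offset of 0.1, limma gave a log2 TPM difference of -1.10 with an unadjusted p of 0.0661, and the genotypes still overlapped. The counts behind 1 TPM, set against those of Spry2, a gene with 1 annotated transcript, varied 7.34-fold between libraries for Fgf2 (0.415 in WT replicate 2 to 3.05 in KO replicate 3). The same measure varied 1.35- to 2.13-fold for Fgfr3, Fgf7, Fgf1 and Fgfr4, in rising order, and by less for Fgfr1, Fgfr2, Spry1 (1.01-fold) and Fgf10 (1.00-fold). The TPM of several of these genes, and of Fgf2 by the widest margin, thus rested on a mean transcript length that differed between libraries. Fgf2 also shares 640 exonic bases with Nudt6 on the opposite strand. Whether counting used the strand is not given in the sources used here, and the source of the length differences was not tested.

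Fgf7 and Fgf10, the paracrine ligands of stroma that drive epithelial growth through Fgfr2, were counted at low levels. Fgf10 (ENSMUSG00000021732, chr13:118669791-118792115) rested on 215, 26 and 158 counts in WT and 209, 66 and 171 counts in KO, or 6.97, 0.910 and 6.06 CPM against 8.35, 2.20 and 5.46 CPM. Replicate 2 was low in both genotypes, and the highest library held 9.18 times the CPM of the lowest, the widest ratio of the 10 genes. Its log2 fold change was 0.20 ± 0.71 (SE, 95% interval -1.41 to 1.81, adjusted p 0.987, edgeR), and it turned to -0.29 without WT replicate 2 and to -0.28 without KO replicate 1.

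Markers of stroma had a like pattern across the libraries. The summed level of 10 fibroblast markers, led by Col3a1 and Col1a1, was 8461, 2897 and 8837 CPM in WT and 5168, 3259 and 7059 CPM in KO. Both replicate 2 libraries were also the lowest of their genotype for the 7 endothelial markers (123 CPM in WT replicate 2 and 184 CPM in KO replicate 2, against 415 to 658 CPM in the other 4 libraries), led by Pecam1 and Cdh5. The 12 luminal markers had their highest sums in the same libraries, at 7802 CPM in WT replicate 2 and 8112 CPM in KO replicate 2. Krt19 and Krt8 were the most abundant of them per length. No marker of these 3 lists was at 0 in any library. The 8 adipocyte markers, led by Fabp4 and Plin1, summed to 55.8 to 319 CPM in WT and 99.3 to 270.4 CPM in KO, and Adipoq, Cidec, Lep, Retn and Cfd were at 0 in some library. Between genotypes, 7 of 10 fibroblast markers, 4 of 7 endothelial markers and 6 of 6 pericyte markers (led by Notch3 and Rgs5) were lower in KO by estimate, with summed ranges that overlapped in each list. Of the pericyte markers, 2 had an unadjusted p under 0.05, Notch3 (0.0139, genotypes not overlapping in CPM) and Kcnj8 (0.0420), and of the adipocyte markers 6 of 7 tested were lower by estimate and 1, Plin1, had such a p (0.0166), beside 2.33% of all genes tested and with none called in edgeR. Across libraries Notch3 did not follow the other pericyte markers. It was highest in replicate 2 of each genotype (234 CPM in WT and 202 CPM in KO). Rgs5 and the rest of that list were lowest there (Rgs5 42.5 CPM in WT and 63.3 CPM in KO). The change of Notch3 is thus not read as one of pericytes. The part of the cell types of these lists in the values of Fgf10 was not tested.

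**Figure D3:**
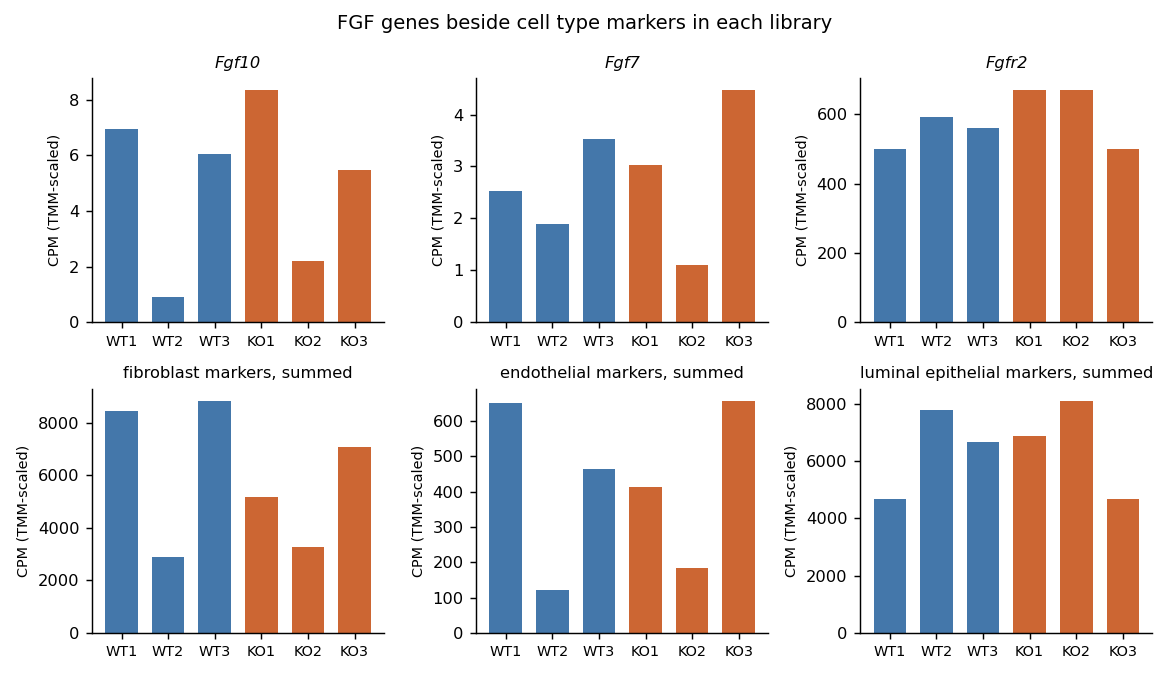
Bars from 0 give the CPM of Fgf10, Fgf7 and Fgfr2 (upper row) and the summed CPM of the fibroblast, endothelial and luminal marker lists (lower row) in each of the 6 libraries, WT in blue and Glis2 KO in orange, with no error since each bar is 1 mouse. Fgf10, Fgf7, fibroblast and endothelial markers are lowest in replicate 2 of each genotype, where the luminal sum is highest.

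Fgf7 (ENSMUSG00000027208, chr2:126034658-126091185), also called keratinocyte growth factor, had 2.53, 1.89 and 3.53 CPM in WT and 3.04, 1.10 and 4.47 CPM in KO, from 33 to 140 counts. Again replicate 2 was the lowest of each genotype, and the genotypes overlapped. The log2 fold change was 0.12 ± 0.53 (SE, 95% interval -1.10 to 1.33, adjusted p 0.991, edgeR) and ran from -0.38 to 0.50 when single mice were left out. For Fgf7 and Fgf10 alike, the interval covered more than a doubling and more than a halving.

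Per length, all 4 ligands together came to 5.39 ± 0.811 TPM in WT and 5.25 ± 0.279 TPM in KO (SD, n = 3 each), beside 110 ± 22.2 and 99.3 ± 17.1 TPM for the 4 receptors. Fgf1 was 52.3 to 75.7% of the ligand sum in WT and 75.7 to 82.1% in KO, a share that takes in the differing transcript lengths of Fgf2, Fgf1 and Fgf7 given above.

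Of the Sprouty genes, Spry2 had the lower estimate in KO and Spry1 one near 0. Spry2 (ENSMUSG00000022114, chr14:105891947-105896819, minus strand), an inhibitor of receptor tyrosine kinase signalling that FGF induces, had 78.3, 89.5 and 79.9 CPM in WT and 65.0, 70.4 and 70.9 CPM in KO. Every KO library was below every WT library, which held for 5.5% of all genes tested in this direction. Per length the genotypes were also apart (8.71 to 10.8 TPM against 6.99 to 7.65 TPM), though TPM also moves with the share of Gm23935. The log2 fold change was -0.26 ± 0.10 (SE, 95% interval -0.50 to -0.02), or -16.7%, with an unadjusted p of 0.0344 and an adjusted p of 0.906 in edgeR. Genes lower in KO with an unadjusted p under 0.05 made up 2.33% of those tested. Leaving out WT replicate 2 or 3 or KO replicate 1 or 2 took the unadjusted p to between 0.0533 and 0.120, and DESeq2 gave 0.0618. The estimate stayed negative under each of the 13 alternatives run, as that of Fgf1 stayed positive. Both genes were picked by their p in these same mice, which the alternatives reuse, so the stable signs add no support.

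Spry1 (ENSMUSG00000037211, chr3:37639947-37644598), a further inhibitor of this family, had 42.8, 29.9 and 48.7 CPM in WT and 39.7, 40.9 and 46.7 CPM in KO. WT libraries held both the lowest and the highest value, and the log2 fold change was 0.07 ± 0.18 (SE, 95% interval -0.35 to 0.49, adjusted p 0.981, edgeR). Whether the change of Spry2 differed from that of Spry1 was not tested. Some marker lists also lay apart by genotype. All 11 basal epithelial markers had higher estimates in KO, 6 of them with an unadjusted p under 0.05 (2.99% of all genes tested) and none called, the smallest adjusted p in edgeR being 0.849. With DESeq2, 1 of them, Tagln, had an adjusted p of 0.0306 but a shrunken log2 fold change of 0.50, under the fold threshold. Their sum was 4716 to 6051 CPM in WT and 6428 to 7743 CPM in KO, and Acta2 and Krt14 were the most abundant of them per length. Of the 9 immune markers, 7 had higher and 2 lower estimates in KO, 4 had an unadjusted p under 0.05 (3 higher and 1 lower, beside 2.99% and 2.33% of all genes tested), none was called, and the sums given above did not overlap. No marker of these lists was at 0 in every library, and the part of either cell type in the values of Spry2 and Fgf1 was not tested.

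**Figure D4:**
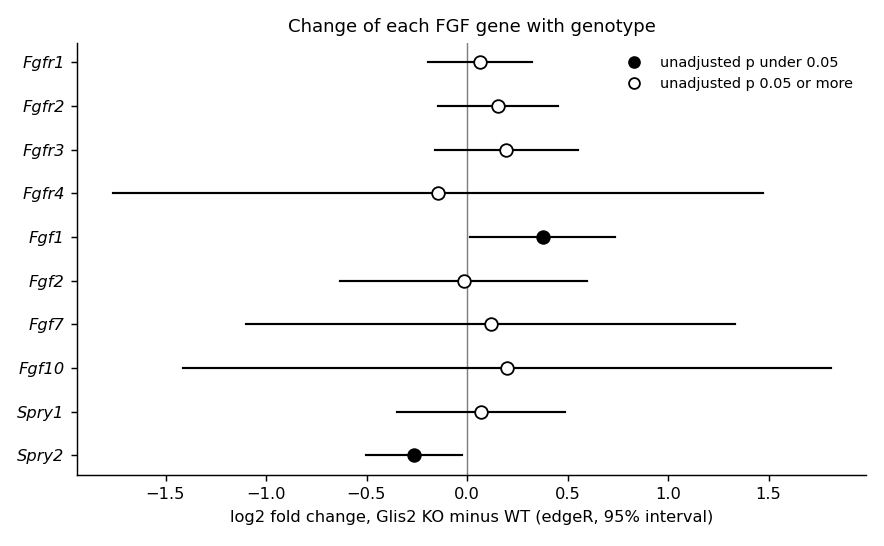
Points give the log2 fold change of each gene, Glis2 KO minus WT, from edgeR with its 95% interval (3 mice per genotype), filled where the unadjusted p is under 0.05. The intervals of Fgf1 (0.01 to 0.74) and Spry2 (-0.50 to -0.02) leave out 0, those of Fgfr1, Fgfr2, Fgfr3 and Spry1 are short and hold 0, and those of Fgfr4, Fgf7 and Fgf10 reach past 1.00 on both sides.

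The spread between mice set which of these genes could be read. Averaged over the genotypes, the coefficient of variation of CPM was 6.02% for Spry2, 10.2% for Fgfr1 and 12.4% for Fgfr2, and it was 45.1% for Fgf7, 64.0% for Fgf10 and 68.2% for Fgfr4. The 3 genes with the widest spread rested on 23 to 215 counts per library, and Fgfr1 on 12318 to 16892.

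Profiles over the 6 libraries were matched by the mean absolute difference of centred log2 CPM among 15213 protein-coding genes tested. The genes nearest to Fgfr1 were Rpl4 (0.02), Cnot10 (0.02) and Ankhd1 (0.02), where the median gene was 0.23 away and Fgfr1 itself deviated from its mean by 0.10. Nearest to Fgfr2 were Fam160a2 (0.02), Cdk8 (0.03) and Mtg2 (0.03). Fgf10 had larger swings, deviating by 0.83 on average, and its nearest genes were Glipr2 (0.18), Clic5 (0.19) and Notch4 (0.20). By this choice they share its low replicate 2, as with Notch4 at 7.14 CPM in WT replicate 2 and 9.28 CPM in KO replicate 2 against 22.5 to 26.9 CPM in the others.

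The wider pathway was read from 4 further lists of 70 genes, of which 57 were tested. Estimates were higher in KO for 35 and lower for 22, the median log2 fold change was 0.06, and none was called. An unadjusted p under 0.05 was reached by 2 of the 57, both higher in KO, Plcg1 and Etv1, beside 5.32% of all genes tested. Among the 57 tested, CPM values of 3 genes did not overlap between genotypes with KO higher (Fgf12, Etv1 and Cbl, beside 6.23% of all genes tested), and those of 1 with KO lower (Flrt3, beside 5.5%). In TPM none of these 4 kept its separation in that direction: Fgf12, Etv1 and Flrt3 overlapped, and Cbl was lower in KO. Cbl and Flrt3 are named after their values were seen.

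Of 18 other FGF family genes, 7 were tested, and the others did not pass the filter on low counts. This list takes in FGF homologous factors and is thus not one of secreted ligands only. Fgf12, which encodes an intracellular FGF homologous factor that is not secreted, had the largest estimate of the list: 1.39, 0.420 and 1.54 CPM in WT and 2.32, 2.30 and 3.16 CPM in KO, from 12 to 99 counts. All KO libraries were above all WT libraries, and the log2 fold change was 1.22 ± 0.55 (SE, unadjusted p 0.0558, adjusted p 0.906, edgeR). In TPM the genotypes of Fgf12 overlapped, with 0.0267 to 0.415 TPM in WT and 0.159 to 0.416 TPM in KO.

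Co-receptors, heparan sulfate enzymes and binding proteins were balanced, with 10 of 20 tested genes higher in KO and 10 lower, and none with an unadjusted p under 0.05. The largest estimate was that of Fgfbp1, a secreted carrier that releases FGFs from the matrix, at 0.583, 2.56 and 0.844 CPM in WT and 0.0799, 0.367 and 0.735 CPM in KO. It overlapped between genotypes, and its log2 fold change of -1.73 ± 0.92 (SE) had an adjusted p of 0.919 in edgeR. Flrt3, a membrane protein that binds FGF receptors, had 14.8 ± 0.740 CPM in WT and 11.6 ± 1.35 CPM in KO (SD, n = 3 each), with a log2 fold change of -0.34 ± 0.18 (SE, adjusted p 0.919, edgeR). In TPM the genotypes of Flrt3 overlapped, and KO replicate 3 was the highest library at 1.13 TPM.

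Among 18 signal transducers, 10 had higher and 8 lower estimates. Plcg1, the phospholipase C gamma 1 that docks on activated FGF receptors, had 179, 131 and 142 CPM in WT and 201, 177 and 225 CPM in KO. KO replicate 2 lay just below WT replicate 1, so the genotypes overlapped. Its log2 fold change was 0.41 ± 0.14 (SE, unadjusted p 0.0186, adjusted p 0.906, edgeR). Per length the genotypes of Plcg1 also overlapped, with 12.6 to 12.9 TPM in WT and 11.8 to 16.5 TPM in KO.

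Of the feedback inhibitors and target genes, 10 of 12 tested had higher estimates in KO and 2 lower, with a median log2 fold change of 0.17 beside 0.01 for all genes tested. The basal epithelial markers had a median of 0.41, and the part of basal cells in this list and in Plcg1 was not tested. Etv1, an ETS factor induced by FGF signalling, had 38.7, 34.0 and 32.2 CPM in WT and 42.8, 46.5 and 39.4 CPM in KO. KO replicate 3 exceeded WT replicate 1 by a small margin, and the log2 fold change was 0.30 ± 0.13 (SE, unadjusted p 0.0496, adjusted p 0.906, edgeR). In TPM, KO replicate 3 of Etv1 fell inside the WT range (3.12 TPM, with WT from 2.91 to 3.30 TPM). Il17rd, a membrane inhibitor of FGF signalling also known as Sef, had the largest estimate of the list, with 14.2, 8.86 and 12.2 CPM in WT and 24.9, 10.9 and 18.4 CPM in KO and a log2 fold change of 0.62 ± 0.31 (SE, adjusted p 0.914, edgeR). Cbl, a ubiquitin ligase for receptor kinases, was apart by little, with 109 to 114 CPM in WT and 115 to 118 CPM in KO. Per length Cbl had the opposite order, with 10.7 to 12.1 TPM in WT and 4.34 to 10.3 TPM in KO, every KO library being below every WT library, so its direction depended on the scale.

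**Figure D5:**
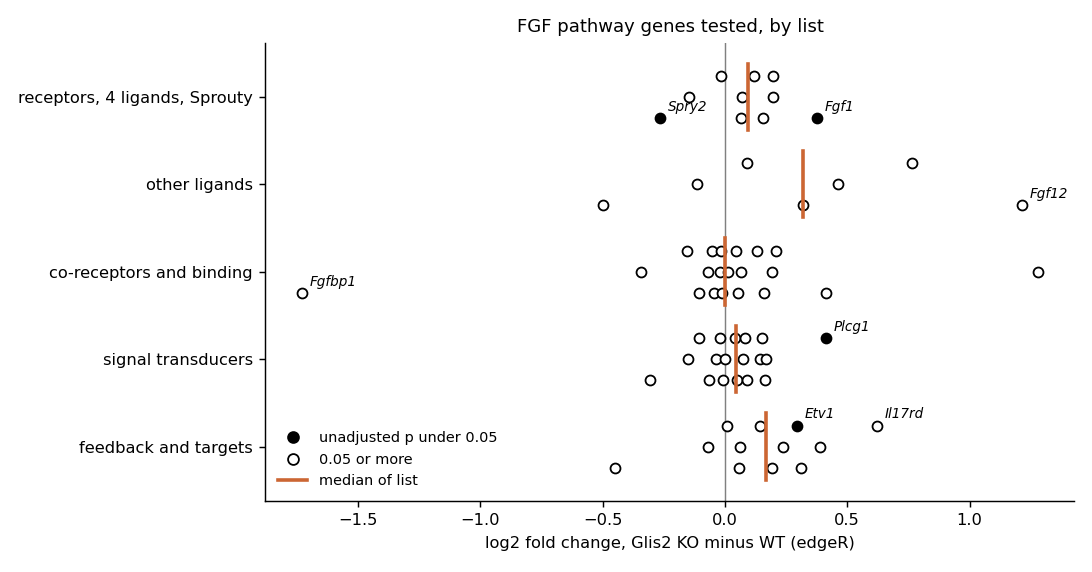
Each point is the log2 fold change (Glis2 KO minus WT, edgeR) of 1 tested gene in 5 FGF lists, filled where the unadjusted p is under 0.05, and the orange bar is the median of the list. Medians are 0.09 for the receptors, 4 ligands and Sprouty genes and 0.32 for the 7 other FGF genes tested (row of other ligands, which takes in homologous factors). They are near 0 for the co-receptors and binding proteins, 0.05 for the signal transducers and 0.17 for feedback inhibitors and targets. The filled points are Spry2, Fgf1, Plcg1 and Etv1.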

How the data were processed

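RNA of sorted mammary cells was analysed from 3 WT and 3 Glis2 KO mice, with 1 library per mouse prepared from 1 ng of RNA and amplified by PCR. The authors quantified transcripts with Salmon 1.2.1 on mm10 and deposited estimated counts per gene, summed over transcripts and stored as whole numbers, with no normalization. The authors also deposited log2 values of TPM plus an offset of 1, from which TPM was taken back. Of 54418 identifiers, 54166 were matched to GENCODE M21 (GRCm38) for symbols and positions, and no per-sample column was left unused.

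All tests were fitted on the whole table with edgeR 4.0.16 (R 4.3.3): filterByExpr, TMM normalization, the quasi-likelihood test on genotype and Benjamini-Hochberg adjustment over 21236 genes. CPM values are scaled by the TMM library sizes. Genes were called at an adjusted p up to 0.05 with a log2 fold change of 0.58 or more in size. No replicate block was used. P-values set the genotype difference against the spread between these mice, moderated across genes. Libraries differed from each other beyond counting noise (chi-square over its degrees of freedom 20.5 or more). The functions were checked on simulated data, in which edgeR called 90 of 200 changed genes and 6 unchanged ones among 20223 tested. Levels between genes were compared in TPM only.

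Alternatives were DESeq2 1.42.0 with apeglm 1.24.0 (the tool the study used), edgeR with the size factors of DESeq2, edgeR unfiltered or with 10 counts required in each sample, log2 TPM in limma 3.58.1 with offsets of 1 and 0.1, no fold threshold, the replicate block and leaving out each mouse. The members and gene lists were chosen with earlier results of these data known. Named are the 10 genes and pathway genes with an unadjusted p under 0.05 or the largest change of their list. Also named are the 2 markers most abundant by TPM in each list named, and the 3 nearest profiles of Fgfr1, Fgfr2 and Fgf10. The markers Tagln and Kcnj8, and the adipocyte markers given as at 0 in some library, were named after their values were seen, as were Cbl and Flrt3.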

Additional observations from a re-analysis of the deposited data

How the results depend on the processing

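Among the counts, genes called numbered 45 with DESeq2, 40 without a filter on low counts and 1 with log2(TPM + 0.1), and 0 under the other alternatives. FGF genes with an unadjusted p under 0.05 numbered 0 with DESeq2, 1 without a filter, 1 with either TPM offset, 1 with the replicate block and 0 to 2 when single mice were left out (0 without WT replicate 3 or KO replicate 1). Of the pathway genes, 1 had such a p with DESeq2 size factors, 4 without a filter, 5 with the replicate block and 0 to 3 when single mice were left out (0 without WT replicate 2 or KO replicate 1). None of the 10 FGF genes was called under any alternative. Directions reversed in log2 TPM with an offset of 1 or 0.1 for Fgfr1 (-0.16 and -0.16), Fgfr2 (-0.12 and -0.12), Fgfr3 (-0.0667 and -0.0767), Fgf7 (-0.12 and -0.29) and Spry1 (-0.0688 and -0.0788). The median of all genes was -0.06 and -0.14 there, beside 0.01 in edgeR. With single mice left out, values ran from -0.0391 to 0.12 for Fgfr1, 0.07 to 0.27 for Fgfr2, 0.08 to 0.28 for Fgfr3, -0.58 to 1.10 for Fgfr4, -0.19 to 0.11 for Fgf2, -0.38 to 0.50 for Fgf7, -0.29 to 0.60 for Fgf10 and -0.11 to 0.22 for Spry1. The share of Fgfr1 in receptor TPM differed by -0.65 percentage points (KO minus WT), by -1.40 in counts, and by -1.84 to 0.84 with single mice left out, the positive value being that without KO replicate 1. The replicate block turned Fgfr4 to 0.28 and Fgf7 to -0.0390. The labels give replicate numbers but do not say whether mice were paired. Deviations of same-numbered mice correlated at r = -0.03, 0.29 and 0.06, and those of WT replicate 1 and KO replicate 3 at 0.29. By chi-square over its degrees of freedom, the library nearest to WT replicate 1 was KO replicate 3 (20.5). The library nearest to WT replicate 2 was KO replicate 2 (28.8). With 3 mice per genotype these values cannot decide whether mice were paired. What caused the shifts between alternatives was not tested. The apeglm step of DESeq2 shrank every fold change of the 10 genes to near 0. With 3 mice per genotype and a common biological variation of 37.4%, small changes of thinly counted genes could not be resolved.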
